A study of Mus musculus with 2 samples.

Results

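The 10 genes described here control the passage of a cell through G1, the phase in which it decides whether to divide again. They are the D cyclins Ccnd1, Ccnd2 and Ccnd3, the kinases Cdk4 and Cdk6, the inhibitors Cdkn1b, Cdkn2a, Cdkn2b and Cdkn2c, and Rb1. Members were chosen by name: a row of the deposited table belongs to a member when its transcript name, without the hyphen and number at its end, is the gene symbol. This gave 21 of 55432 rows, and 10 of 22605 genes. For each gene the transcript with the most windows stands for it, and other transcripts serve to separate parts of a gene.

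D cyclins join CDK4 or CDK6, and the active pair phosphorylates the retinoblastoma protein, which then releases E2F factors and lets the genes of DNA synthesis be transcribed. Ink4 proteins, encoded by Cdkn2a, Cdkn2b and Cdkn2c, bind the kinases and keep the cyclins away, while p27, the product of Cdkn1b, mainly holds back the later cyclin E kinase. Cdkn2a also encodes Arf, which shares an exon with Ink4a in another reading frame and acts on p53 through Mdm2. Myeloid progenitors divide rapidly, and M1 cells are known to leave the cell cycle as they turn into macrophages.

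DNase I hypersensitivity was compared between 1 library of untreated M1 cells, a murine myeloid leukemia line, and 1 library of M1 cells that received IL-6. The labels give passages 15 to 18 for both and 4 to 5 days of IL-6 for the treated cells, and no dose. Light digestion with DNase I frees short fragments from open chromatin, and these were sequenced. The table gives mean reads per 700-bp window over the windows that a coding span, from start to stop codon, touches, and 1 read of the treated library was worth 1.04 in it (the number of reads was recovered from this step). Levels of treated cells are given below on that scale, and reads as counted. There is 1 library per condition, so no p-value is given, and IL-6 cannot be told apart from the preparation of a library. Intervals are 95% intervals of counting error only (Clopper-Pearson for ratios, exact Poisson for levels). In a bulk digest, fewer cells with an open site and a weaker opening in each cell cannot be told apart.

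Across non-overlapping coding spans the libraries held 9102320 reads in untreated and 8544903 reads in IL-6-treated cells. These are 7.58 and 7.12 reads per window as counted, without the scaling. The label was looked at through 3 genes that were not part of any fixed list. In untreated cells Sfpi1, which encodes the myeloid factor PU.1, had 28.9 reads per window, above the 10.5 of Cd3e, a T cell gene. In IL-6-treated cells Sfpi1 had 12.9 and Itgam, a macrophage marker, 6.91 reads per window, both below the 16.1 of Cd3e. Itgam was already below Cd3e in untreated cells, at 9.29 reads per window, and its ratio was 0.744 (0.670 to 0.826). Signal over coding spans is not expression, and by it Itgam did not stand out in the treated library.

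With the scaling of the table all 10 members had less signal in IL-6-treated cells, and all 10 had a log2 ratio below that of the median gene. Their median log2 ratio was -1.07, against 0.03 over the 18472 genes that had more than 21 scaled reads in one library or in both. The difference of these medians lay between -1.14 and -1.09 over the 5 scalings. A scaling shifts members and all genes alike, so this likeness over scalings is no test of the difference. Scaling by the median ratio of single windows shifts every log2 ratio by 1.83, and all 10 ratios were then above 1. Its factor of 3.681 rests on 544 of the 4349 single windows recovered, those with at least 22 reads in both libraries. The factors of the other scalings were 1.000 to 1.065. In the table's own scaling 5 of 10 members were lower by at least 2-fold, as were 13.4% of all genes. By that fold 0 of 10 were higher, as were 1.71% of genes. A log2 ratio below 0 was found in 10 of 10 members and 48.3% of genes. The 95% interval lay below 1 for 9 members and above 1 for 0, where it did so for 34.4% and 29.0% of genes.

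The share of lower genes was largest among genes of strong signal, and 5 of the 10 members were among these. When the genes were split into 5 classes by their reads per window summed over both libraries, 49.6% of the highest class (34.2 or more) were at least 2-fold lower, with a median log2 ratio of -0.99. All 5 members of that class, Ccnd1, Ccnd3, Cdk4, Cdkn1b and Cdkn2b, were at least 2-fold lower, with log2 ratios from -1.29 to -1.20. They have short spans, and the 1756 genes of 3 to 12 windows in that class had a median of -1.19, which is about the value of these members. Cdk6, Cdkn2a, Cdkn2c and Rb1 were in the second lowest class, whose median was 0.20. Their log2 ratios of -0.62 to -0.31 were all below it, and 33.9% of that class had a log2 ratio below 0. The interval lay below 1 for 3 of these 4 members and for 18.4% of that class. Ccnd2 alone was in the second highest class, with a log2 ratio of -0.94 against a class median of -0.12. Of that class 10.4% were at least 2-fold lower, a fold that Ccnd2 did not reach.

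**Figure D1:**
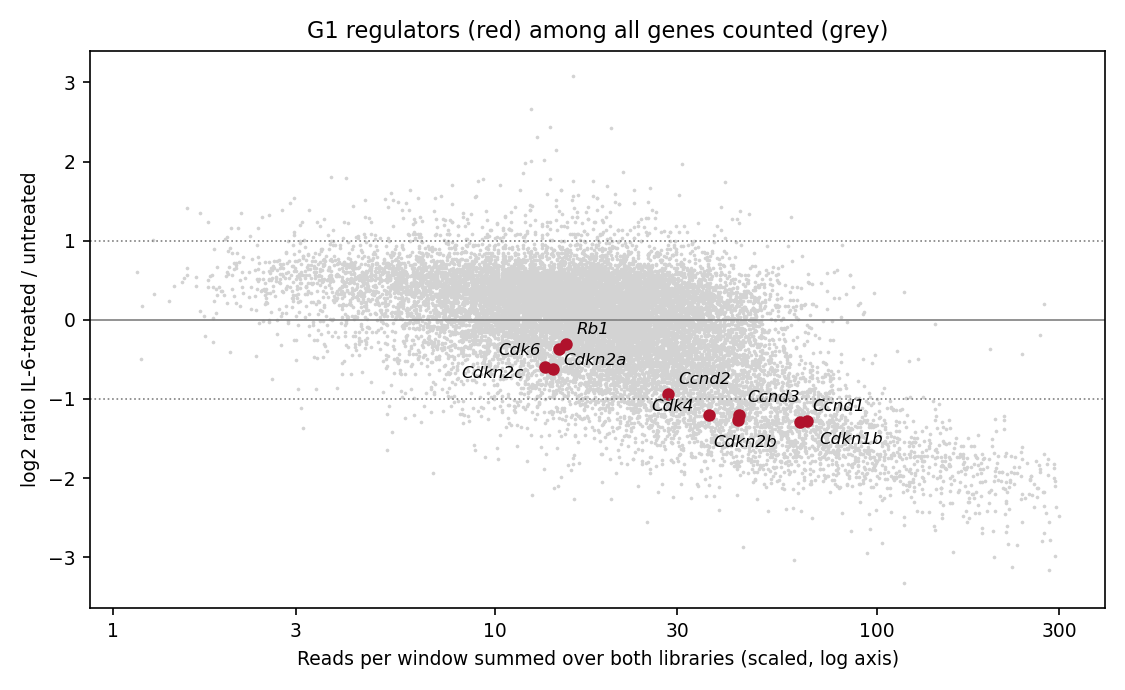
Each grey point is 1 of 18371 genes shown (101 lie outside the axes), placed by its reads per window summed over both libraries (horizontal, log axis) and its log2 ratio of IL-6-treated to untreated M1 cells (vertical, scaling of the table). The 10 members (red) lie below 0, the stronger ones near -1.2 and the weaker ones nearer to 0, and a scaling by single windows would move every point up by 1.83.

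The D cyclins are the part of the pathway that responds to growth signals. In untreated cells all 3 had more signal than the median gene counted (9.33 reads per window). Ccnd1 (chr7:152118512-152125598, minus strand, NCBIM37) had 491 reads in untreated and 193 in IL-6-treated cells over 11 windows. These are 44.6 (40.8 to 48.8) and 18.2 (15.7 to 21) reads per window, and the intervals did not overlap. The ratio was 0.408 (0.344 to 0.483). Ccnd1 stood at the 94.9 percentile of level in untreated cells and the 90.2 percentile in treated cells, so it remained among the strong genes.

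Ccnd2 (chr6:127080353-127100791, minus strand) encodes cyclin D2. Over 30 windows it had 560 and 281 reads, or 18.7 (17.2 to 20.3) and 9.72 (8.62 to 10.9) reads per window. Its ratio of 0.521 (0.450 to 0.602) was just short of 2-fold. Ccnd3 (chr17:47730604-47735725, plus strand), the gene of cyclin D3, which developing lymphocytes need, had 242 and 101 reads over 8 windows. That is 30.2 (26.6 to 34.3) against 13.1 (10.7 to 15.9) reads per window, a ratio of 0.433 (0.340 to 0.549). The intervals of the ratio of all 3 cyclins overlapped, so no order among them is read from these libraries.

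Genes beside the cyclins had ratios of their own. Oraov1 and Tpcn2, 3.52 and 315 kb from Ccnd1 on either side, had ratios of 0.975 (0.836 to 1.14) and 1.09 (0.980 to 1.22). Both lay above the interval of Ccnd1. In untreated cells both were also weaker, at 16.5 and 15.1 reads per window against 44.6 for Ccnd1. Beside Ccnd3, Taf8 (91.4 kb away) had 0.735 (0.619 to 0.871) and Bysl (2.78 kb) 0.574 (0.460 to 0.713). The interval of Bysl overlapped that of Ccnd3. Beside Ccnd2, 9630033F20Rik (20.9 kb away) had 0.533 (0.445 to 0.638), close to the ratio of Ccnd2. On the other side Gm4968 (83.0 kb) had 12 and 19 reads, too few to be counted among the genes.

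**Figure D2:**
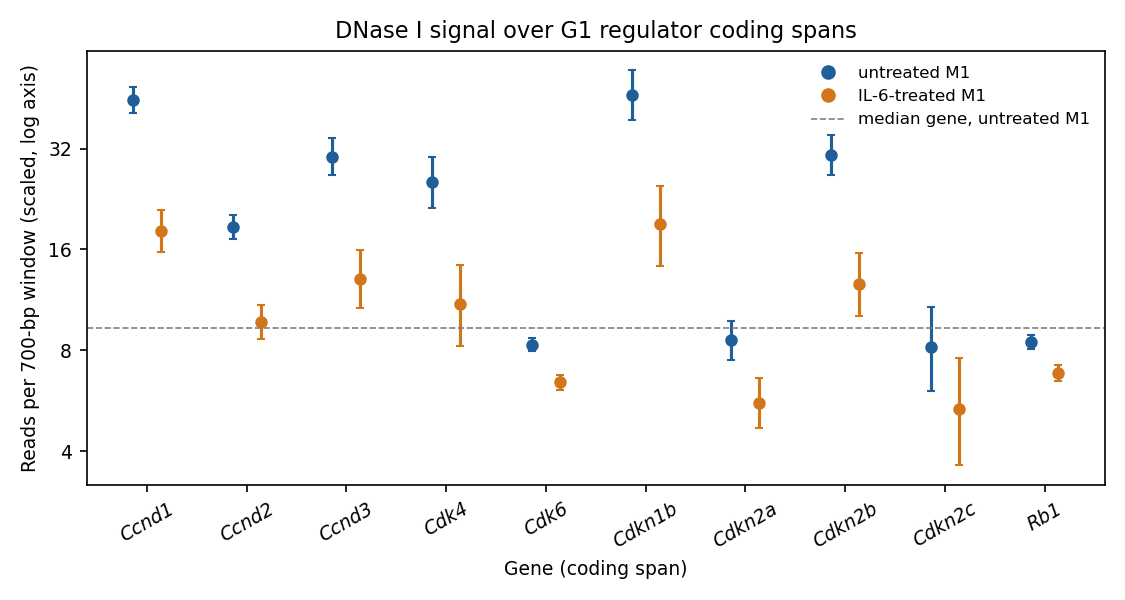
Mean reads per 700-bp window over the coding span of each member (log axis) in untreated (blue) and IL-6-treated (orange) M1 cells, 1 library each, with 95% Poisson intervals of counting error and the median of all genes counted in untreated cells (dashed, 9.33). With the table's scaling all treated points lie below the untreated ones, and only for Cdkn2c do the intervals overlap; scaling by single windows turns every member upward.

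The kinase genes differ in size, and their values also differed. Cdk4 (chr10:126501292-126504077, plus strand) had 127 and 53 reads over 5 windows, or 25.4 (21.2 to 30.2) and 11 (8.24 to 14.4) reads per window. The ratio was 0.433 (0.308 to 0.601). Its 5 listed transcripts end at different windows, which isolates parts of the gene. The 5′ window, from 126501201 to 126501900, had 47 and 20 reads (ratio 0.442, 0.248 to 0.760). Windows 2 and 3 together had 55 and 20 reads, and their SD allows only 49 and 6 reads in untreated and 18 and 2 reads in treated cells. Both libraries therefore had a strong and a weak window side by side here. Window 4 had 18 and 12 reads and window 5 had 7 and 1, and both of their intervals held 1.

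The start site of Cdk4, at 126500590, lies 611 bp outside its windows, so the promoter itself is not in these values. Its sequence, chr10:126500340-126500589 (NCBIM37), is shown 5′ to 3′ for a motif that no other member has.
Cdk4: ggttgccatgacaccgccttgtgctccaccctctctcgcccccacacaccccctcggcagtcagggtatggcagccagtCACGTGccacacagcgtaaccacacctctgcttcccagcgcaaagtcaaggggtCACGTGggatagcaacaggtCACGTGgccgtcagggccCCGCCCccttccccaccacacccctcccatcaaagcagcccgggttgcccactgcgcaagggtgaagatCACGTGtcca
The capitals mark 4 E-boxes (CACGTG, the same on both strands), the element bound by Myc and Max, and 1 GC box (GGGCGG on either strand). The stretch is 64.4% G or C, and over 22587 genes the median of such stretches was 54.4%. A GC box was found in 39.8% of them and in 6 of the 10 members. An E-box of these letters was found in 6.37% of all promoters of this length and in 1 of the 10 members. A match is a sequence only, and binding was not measured in these files. Tspan31, whose coding span lies 1.09 kb from that of Cdk4, had 313 and 108 reads over 4 windows, a ratio of 0.358 (0.285 to 0.447). March9, on the other side, had 91 and 38 reads and a ratio of 0.434 (0.289 to 0.640). Cdk4 and both neighbors thus had overlapping intervals of the ratio.

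Cdk6 (chr5:3344367-3520791, plus strand), the other D cyclin kinase, spans 176 kb and 253 windows. It had 2105 reads in untreated and 1566 in treated cells, the most of any member. Per window these are 8.32 (7.97 to 8.68) and 6.43 (6.11 to 6.75), at the 53.3 and 37.1 percentile of all genes. The ratio of 0.772 (0.723 to 0.825) was nearer to 1 than that of Cdk4, and their intervals did not overlap. The 2848 genes of 100 windows or more had a median log2 ratio of 0.27, against -0.37 for Cdk6. A predicted gene, Gm17590, overlaps exon 5 of Cdk6 on the opposite strand, and its 1 window had 15 and 12 reads. Without it the ratio of Cdk6 stayed at 0.772. The neighbor Fam133b had a ratio of 0.802 (0.666 to 0.965), whose interval overlapped that of Cdk6.

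Cdkn1b (chr6:134870938-134872092, plus strand), which encodes p27, had the highest level per window of the members in both libraries. Its 3 windows held 139 and 55 reads, or 46.3 (39.0 to 54.7) and 19 (14.3 to 24.8) reads per window. The ratio was 0.411 (0.295 to 0.565). Mean and SD allow only 3 sets of window reads in untreated cells (98, 26 and 15, or 96, 35 and 8, or 95, 38 and 6) and 2 sets in treated cells (29, 14 and 12, or 26, 21 and 8). The strongest window thus held 68.3% to 70.5% of the reads before IL-6 and 47.3% to 52.7% after it. This share does not depend on the scaling. Apold1, on the far side at 61.5 kb, had a ratio of 0.299 (0.215 to 0.411), and Gpr19 one of 0.966 (0.612 to 1.52).

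Genes nearest to Cdkn1b in level in the 2 libraries, by Euclidean distance of log2 reads per window, were Tmem161a (46.1 and 19.2 reads per window), Ccrl1 (46.0 and 19.4) and Wnt10b (47.3 and 19.3). For Ccnd1, the member with the largest log2 ratio in size, they were C8g (44.6 and 18.1), Hdgf (45.0 and 18.4) and Surf1 (45.4 and 18.3). This likeness rests on 2 libraries, and many genes have such values.

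**Figure D3:**
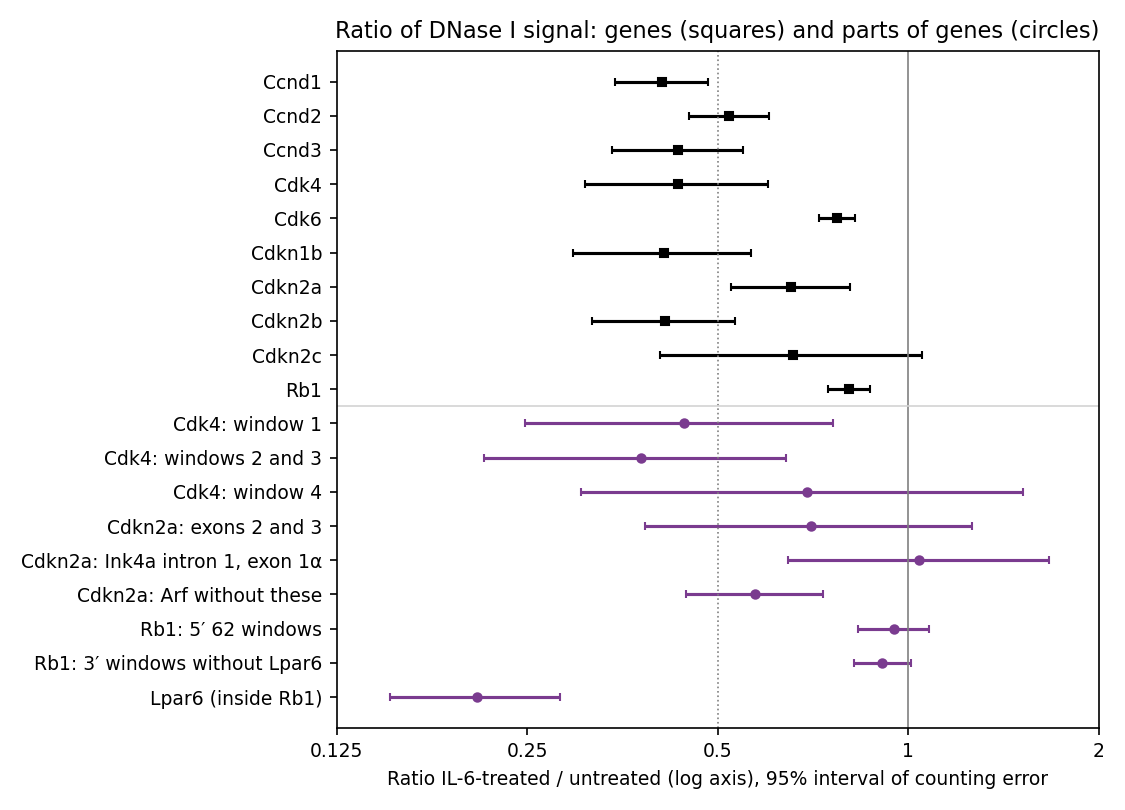
Ratio of DNase I signal in IL-6-treated to untreated M1 cells (log axis, scaling of the table) for the 10 members (squares) and for parts of Cdk4, Cdkn2a and Rb1 (circles), with 95% intervals of counting error. Of the ratios drawn the lowest is that of Lpar6 inside Rb1 (0.208), with window 5 of Cdk4 (7 and 1 reads) left out. The Ink4a part of Cdkn2a (1.04) and both other parts of Rb1 have intervals that hold 1. So do Cdkn2c, window 4 of Cdk4, and exons 2 and 3 of Cdkn2a. Scaling by single windows multiplies all ratios alike and puts the members above 1.

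Cdkn2b, which encodes p15, and Cdkn2a lie 12.5 kb apart on chromosome 4, both on the minus strand, and differed in level. Cdkn2b (chr4:88952963-88956706) had 214 and 85 reads over 7 windows. Its level was 30.6 (26.6 to 35.0) in untreated and 12.6 (10.1 to 15.6) reads per window in treated cells, and the ratio was 0.412 (0.317 to 0.533). In untreated cells 1 window held between 110 and 146 of the 214 reads, and in treated cells the strongest held 30 to 44 of 85. Over the 26 windows of the Arf coding span, Cdkn2a (chr4:88922570-88940427) had 223 and 140 reads. Its level of 8.58 (7.49 to 9.78) and 5.59 (4.70 to 6.60) reads per window was below that of Cdkn2b in both libraries, and its ratio was 0.652 (0.524 to 0.809). The intervals of the 2 ratios overlapped slightly.

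The transcripts of Cdkn2a separate its 2 products. Ink4a starts from exon 1α, which lies in intron 1 of Arf, and Arf starts from exon 1β further upstream. The 4 windows of exons 2 and 3, from 88920301 to 88923100, had 31 and 21 reads, a ratio of 0.703 (0.384 to 1.26). The 8 windows from 88923101 to 88928700, which hold Ink4a exon 1α with its start site and the intron behind it, had 38 reads in each library. That is 4.75 and 4.93 reads per window, a ratio of 1.04 (0.645 to 1.67), and no window there had over 10 reads in untreated cells. With the table's scaling no change was detectable over these 8 windows at this depth, and with scaling by single windows their ratio was 3.68 (2.29 to 5.93). The window of the Ink4a start site was not separated from the others.

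The rest of the Arf span carried the difference. Without those 8 windows Arf had 185 and 102 reads over 18 windows, a ratio of 0.572 (0.445 to 0.733). Its strongest window held 41 to 79 reads in untreated cells, more than any window of exons 2 and 3 (at most 18) or of the Ink4a part. It must therefore lie among the 17 windows between exon 1α and the Arf start. These held 167 to 185 reads in untreated and 90 to 102 in treated cells, since 1 window is shared with exon 2. In treated cells no window of the 18 had over 22 reads.

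Promoter sequences of the 3 Ink4/Arf products are shown to compare their base composition, each 5′ to 3′ with matches of the STAT, GC box, E-box and E2F motifs in capitals.
Cdkn2b: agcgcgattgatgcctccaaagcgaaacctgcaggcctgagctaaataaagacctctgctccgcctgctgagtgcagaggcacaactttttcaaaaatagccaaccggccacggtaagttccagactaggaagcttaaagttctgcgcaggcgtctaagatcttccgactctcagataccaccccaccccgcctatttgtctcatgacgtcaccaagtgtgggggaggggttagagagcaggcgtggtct
Ink4a: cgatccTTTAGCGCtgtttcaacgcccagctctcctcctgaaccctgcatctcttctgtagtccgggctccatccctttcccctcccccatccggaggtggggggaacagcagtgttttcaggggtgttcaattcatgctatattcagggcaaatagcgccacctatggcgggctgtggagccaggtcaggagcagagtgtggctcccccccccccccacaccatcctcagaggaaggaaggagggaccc
Arf: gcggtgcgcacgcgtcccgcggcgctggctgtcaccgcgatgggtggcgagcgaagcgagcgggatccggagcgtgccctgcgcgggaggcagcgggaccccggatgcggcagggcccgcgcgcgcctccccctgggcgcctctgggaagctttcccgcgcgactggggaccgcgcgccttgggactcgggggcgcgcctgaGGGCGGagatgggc
The Cdkn2b stretch, chr4:88956942-88957191, has 12 CpG and 53.6% G or C, and none of those 4 motifs occurs in it. The Ink4a stretch, chr4:88928097-88928346, has 7 CpG and 60.0% G or C, and the capitals mark 1 E2F match (TTTNGCGC, either strand, in 1.29% of promoters). In the Arf stretch, shown upstream of every annotated exon as chr4:88940558-88940773, the capitals mark a GC box. The full 250 bases before the Arf start have 40 CpG and 78.4% G or C, at the 98.3 and 97.5 percentile of all genes. All of the Ink4a and Cdkn2b stretches and 77 bases of the Arf stretch lie in windows that were measured. A STAT match (TTCNNNGAA), of the kind bound by STAT3 downstream of IL-6, was found in 0 of the 10 members and 6.94% of all promoters. Myb matches (AACNG, either strand, not in capitals here) were found in 8 of 10 members and 72.4% of all promoters.

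**Figure D4:**
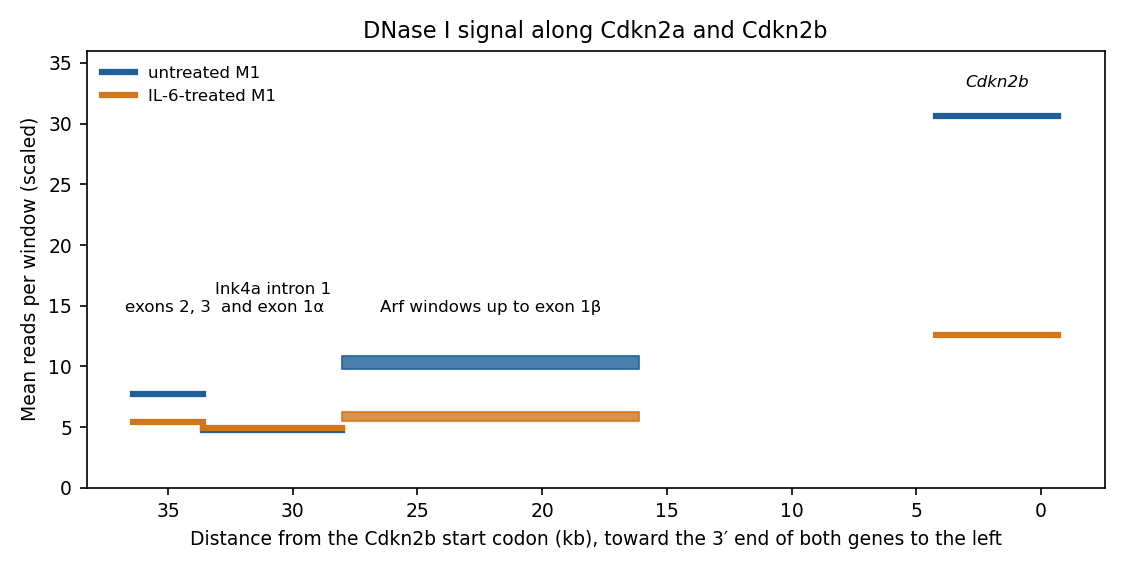
Mean reads per window along Cdkn2a and Cdkn2b in untreated (blue) and IL-6-treated (orange) M1 cells, against the distance from the Cdkn2b start codon in kb, with the scaling of the table. Lines cover the windows averaged, and the bands for the 17 Arf windows span their lowest and highest possible mean. Both libraries lie near 5 over the Ink4a exon 1α windows, while over the Arf windows and Cdkn2b the blue level is higher, an order that scaling by single windows would turn.

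Genes outside the pair did not share its lower values. Mtap, 97.2 kb beyond Cdkn2a, had 479 and 511 reads and a ratio of 1.11 (0.976 to 1.26), with an interval above those of both members. Dmrta1, on the other side at 398 kb, had 18 and 28 reads and a ratio of 1.61 (0.862 to 3.10). Cdkn2c (chr4:109333854-109337751, minus strand), which encodes p18, is the weakest member by reads, with 49 and 31 over 6 windows. Its levels of 8.17 (6.04 to 10.8) and 5.36 (3.64 to 7.61) reads per window overlapped, and the ratio of 0.657 (0.405 to 1.05) held 1. Its strongest window held 22 to 29 of the 49 reads in untreated cells. The nearest start site of Cdkn2c is 77 bp outside its windows. Its neighbor Faf1 had a ratio of 0.725 (0.676 to 0.777) and 4930522H14Rik one of 1.31 (1.01 to 1.70).

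Rb1 (chr14:73597018-73725448, minus strand), the target of the D cyclin kinases, had 1570 and 1219 reads over 185 windows. These are 8.49 (8.07 to 8.92) and 6.84 (6.46 to 7.24) reads per window, a ratio of 0.806 (0.747 to 0.869). Most of this difference lay in 3 of its windows. Lpar6, the gene of a lysophosphatidic acid receptor, lies in intron 17 of Rb1 on the opposite strand, and its windows (chr14:73637901-73640000) had 259 and 52 reads. Mean and SD allow only 177, 70 and 12 reads in untreated and 30, 18 and 4 reads in treated cells. The ratio was 0.208 (0.152 to 0.282), lower than that of any member.

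These 3 windows are 1.62% of the windows of Rb1, and they held 16.5% of its reads in untreated and 4.27% in treated cells. Of the 304 scaled reads by which Rb1 was lower, 205 (67.3%) were lost there. Without them Rb1 had 1311 and 1167 reads, or 7.20 and 6.66 reads per window, and a ratio of 0.924 (0.853 to 1.00) whose interval just held 1. The 62 windows at the 5′ end, which include the start site, had 485 and 443 reads (0.948, 0.832 to 1.08). In the other 120 windows there were 826 and 724 reads (0.910, 0.822 to 1.01). Beyond Lpar6, no part of Rb1 that could be separated had an interval below 1 with the table's scaling. With that scaling the interval of Rb1 thus lay below 1 only with the windows of Lpar6 included. Without them its upper limit of 1.00 is so close to 1 that the scaling decides. No scaling and scaling by the median ratio of genes shift every log2 ratio by -0.05 and -0.01, which takes that limit below 1. With scaling by single windows Lpar6 was still below 1, at 0.739 (0.538 to 0.999), and the rest of Rb1 was at 3.28 (3.03 to 3.55).

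**Figure D5:**
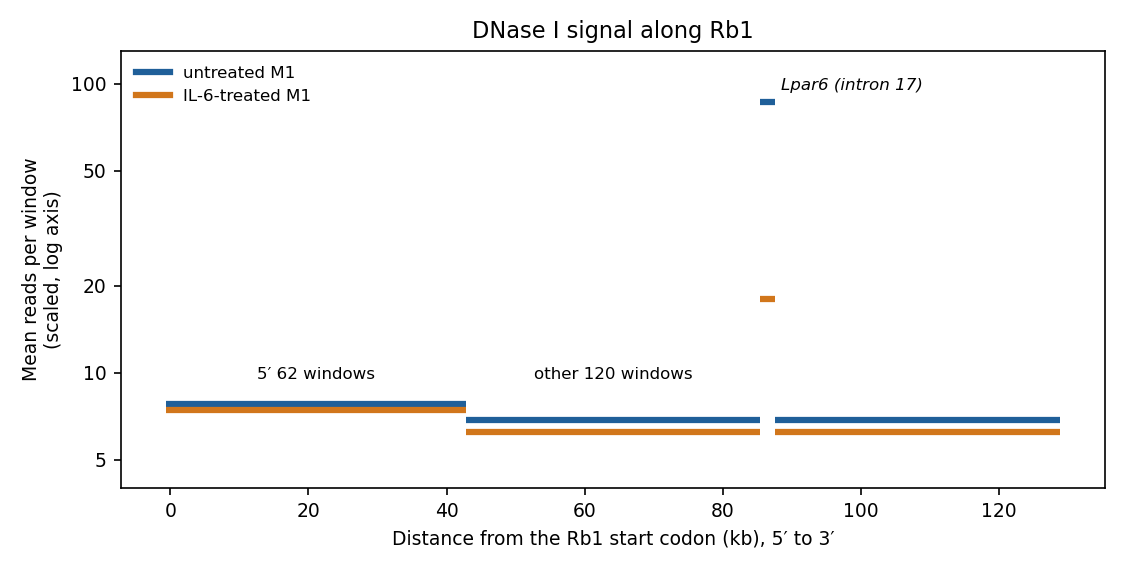
Mean reads per window along Rb1 (log axis) in untreated (blue) and IL-6-treated (orange) M1 cells, against the distance from the Rb1 start codon in kb, with the scaling of the table. Over the 3 Lpar6 windows in intron 17 the level goes from 86.3 to 18.0, and over the 62 windows at the 5′ end and the other 120 windows (drawn at their common mean) the lines nearly meet.

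The windows before the Rb1 start site are covered whole, and the sequence is shown as the richest in GC boxes among the members.
Rb1: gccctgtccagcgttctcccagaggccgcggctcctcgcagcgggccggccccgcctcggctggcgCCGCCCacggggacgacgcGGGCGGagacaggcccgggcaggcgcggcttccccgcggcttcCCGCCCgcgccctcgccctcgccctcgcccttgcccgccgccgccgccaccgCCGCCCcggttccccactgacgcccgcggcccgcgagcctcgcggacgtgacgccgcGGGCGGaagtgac
The capitals mark 5 GC boxes in chr14:73725630-73725879, which has 45 CpG and 82.4% G or C, at the 99.4 and 99.3 percentile of all genes. The neighbors outside Rb1, Itm2b and Cysltr2, had ratios of 0.890 (0.761 to 1.04) and 1.89 (1.02 to 3.65), the latter from 17 and 31 reads.

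In untreated cells the levels of the members fell into 4 sets. Cdkn1b and Ccnd1 were highest, at 46.3 and 44.6 reads per window. Cdkn2b, Ccnd3 and Cdk4 followed at 30.6, 30.2 and 25.4, then Ccnd2 alone at 18.7, and last came Cdkn2a, Rb1, Cdk6 and Cdkn2c between 8.58 and 8.17. Intervals overlapped between neighbors within each of these sets and not between Ccnd1 and Cdkn2b, Cdk4 and Ccnd2, or Ccnd2 and Cdkn2a. After IL-6 the same 4 genes were lowest, from 6.84 for Rb1 to 5.36 for Cdkn2c, and Cdkn1b and Ccnd1 were still highest. Only the step from Ccnd2 (9.72) to Rb1 was then free of overlap between neighbors.

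Signal was also more even along the genes after IL-6, a property that scaling cannot change. The variance between windows beyond counting error, divided by the squared mean, was lower in treated cells for all 10 members, with a median of 1.90 before and 0.564 after. The same held for 80.8% of the 17453 genes with at least 3 windows, and for 91.5% of those in the highest class of signal. It went from 4.18 to 0.531 in Rb1, and without the Lpar6 windows from 2.47 to 0.484. In Ccnd2 it went from 2.78 to 0.627 and in Cdkn2a from 2.77 to 0.328. Cdk4 changed least, from 0.655 to 0.598. Whether this evenness of the treated library has a part in the ratios above was not tested.

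The members' partners at the G1/S step were taken from a list of 19 genes, and 18 of them passed the limit on reads. Of the 18, 3 were at least 2-fold lower and 0 were 2-fold higher, as were 13.4% and 1.71% of all genes. Of the same 18, 11 had an interval below 1 and 2 an interval above 1, as had 34.4% and 29.0% of all genes. Their median log2 ratio of -0.32 was nearer to that of all genes (0.03) than that of the members, and it lay below the median gene. A scaling shifts partners and all genes alike, so the scalings do not test this order. By median the partners had less signal per window in untreated cells than the members, and more windows. Among all genes, ratios were lower at strong signal and over short spans, and the lists were not matched for either. Whether members and partners differ beyond their signal and span was not tested. Of the partners whose libraries sum to 100 reads or more, the lowest were Cks1b, a small subunit of the cyclin-dependent kinases, and Ccna2, the cyclin of S phase. Cks1b had 606 and 161 reads over 5 windows (0.276, 0.230 to 0.329), and Ccna2 508 and 163 reads over 9 windows (0.333, 0.277 to 0.398). Ccnh, a subunit of the kinase that activates CDKs, had 372 and 174 reads (0.486, 0.403 to 0.583). By the same limit the highest were Ccna1, the cyclin of the germ line, with 97 and 143 reads (1.53, 1.17 to 2.00), Tfdp2, a partner of E2F, with 406 and 450 reads (1.15, 1.00 to 1.32), and Fzr1, an activator of the anaphase-promoting complex, with 149 and 148 reads (1.03, 0.816 to 1.30). Cdkn1a, which encodes p21, was under that limit with 29 and 34 reads (1.22, 0.720 to 2.07). Cdkn2d, the remaining Ink4 gene, had 4 and 2 reads, which allows no statement on a change.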

How the data were processed

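DHS-seq was analyzed in 1 library of untreated and 1 of IL-6-treated M1 cells, grouped by the treatment label. Trimmed reads had been mapped by the authors with BWA on the mouse build NCBIM37, and Seqmonk is the viewer they name (versions, and the steps that made the table, not given in the sources used here). Each deposited signal is a mean or SD of reads per window, with the number of windows beside it. All 55432 rows had the number of 700-bp windows that their span touches, and 99.4% of spans were GENCODE M1 coding spans within 3 bp.

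A mean times its number of windows was within 0.05 of a whole number of reads in 100% of rows, at 1.00 per read in untreated and 1.03816 in treated cells. The paper does not name such a factor. Differences of spans with shared ends gave parts of genes, and the sums of squares behind the SDs gave the possible strongest windows. Stretches derived from several combinations of spans disagreed in 0 cases. How reads that match several places were placed is not given.

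Log2 ratios add 0.5 reads to each library. Genes were counted where the scaled reads of at least 1 library exceeded 21. Alternatives were 4 other scalings, 5 reads added, another transcript per gene, a fold of 1.5 and other read limits. The recovery and the intervals were tested on simulated windows. Named are the members, their nearest non-overlapping coding spans, the 3 lowest and 3 highest G1/S partners with at least 100 reads, and the 3 genes nearest in level to each of 2 members. Lpar6 and the evenness of signal were chosen after values were seen, and members and lists with earlier results of these data known. Promoters are the 250 bases before the start site nearest to the start codon, read from NCBIM37. A value of 0 reads would allow up to 3. One promoter sequence and 1 marker gene are not reported here. The column of the table without values was not used. Python 3.11.15, numpy 2.4.6, pandas 2.3.3, scipy 1.17.1 and matplotlib 3.10.9 were used.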

Additional observations from a re-analysis of the deposited data

How the results depend on the processing

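No paired analysis was possible because no condition has more than 1 library. Alternatives gave 186 values for 25 results. Of these, 149 differed from the reported ratio by less than its interval, from a count by at most 1.5 times or from a median by at most 0.33 (log2). Of the 37 that did not, 25 came from scaling by the median ratio of 544 single windows (22 reads or more in each library).

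With that scaling the log2 ratios were 0.54 for Ccnd1, 0.89 for Ccnd2, 0.62 for Ccnd3, 0.63 for Cdk4, 1.45 for Cdk6, 0.55 for Cdkn1b, 1.21 for Cdkn2a, 0.55 for Cdkn2b, 1.23 for Cdkn2c and 1.52 for Rb1. The members' median was 0.76 in place of -1.07, with 0 at least 2-fold lower, 4 at least 2-fold higher, 0 intervals below 1 and 10 above. For the G1/S partners the median was 1.51, with 0 lower, 13 higher, 0 intervals below 1 and 16 above. Over all genes the median was 1.89, with 16 lower, 17687 higher, 174 intervals below 1 and 19376 above. Lower genes were 0.0904% of those changed, in place of 88.7%, and among changed members 0% in place of 100%. The cause was not tested.

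Intervals above 1 among the partners numbered 1 with no scaling and 1 with the median ratio of genes. With a fold of 1.5, 8 members, 7 partners and 4289 genes were lower, and 1 partner and 2000 genes higher. Genes at least 2-fold higher numbered 176 with 5 reads added, 1092 without a limit on reads and 97 with more than 50 reads. By its lowest-numbered transcript, that of Ink4a, Cdkn2a had a log2 ratio of -0.17. Without the Lpar6 windows, an alternative chosen after seeing the data, Rb1 had -0.11, and 8 members had an interval below 1. Depth limits what can be said of the single windows of Cdk4 and of the parts of Cdkn2a.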
